A study of Drosophila melanogaster with 4 samples.

Results

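Of the 2459 CTCF peaks called in Drosophila melanogaster embryo chromatin, 471 (19.2%, 95% Wilson interval 17.6 to 20.8%) lay deep inside a region enriched for the histone variant H2A.V. A peak was counted as deep when its midpoint lay inside an H2A.V region on the same sequence and more than 500 bp from both edges of that region. The peaks were thus chosen by their measured positions in both lists, and every distance to an edge given here is a description of them. Chromatin came from unstaged wild-type embryos, fixed with formaldehyde and sheared by sonication. It was assayed by ChIP-seq, in which an antibody pulls down the DNA bound to 1 protein for sequencing. The series holds 4 libraries, a CTCF ChIP, an H2A.V ChIP, an H3 ChIP and an input, with 1 of each. All 4 share the wild-type genotype and the embryo stage, and an unstaged collection mixes embryos of different ages and all of their cell types. The CTCF library held 11657333 tags and the H2A.V library 12260001, per the file headers.

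CTCF is a zinc-finger protein that binds a specific DNA sequence and is known in the fly as an insulator factor, at the borders of regulatory domains and in the Hox gene clusters. H2A.V is the only H2A variant of the fly and does the work that mammals divide between H2A.Z and H2A.X. It is known for marking nucleosomes near active promoters and for a role in the repair of broken DNA. Bound CTCF is known to hold a stretch of DNA free of nucleosomes, with regularly spaced nucleosomes on either side, and the title of the series concerns ACF1, a subunit of nucleosome-spacing enzymes. The deep peaks are thus sites of a DNA-binding protein that sit within, and not beside, a stretch called as H2A.V chromatin.

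With 1 library per antibody there is no replicate, so no test was run and no p-value is given. Intervals for shares (Wilson), for counts (exact Poisson) and for medians (from the ranks of the values) are at the 95% level and cover counting error over peaks or regions only. An H2A.V region was built from 500 bp windows joined into 1 interval, so that a gap in H2A.V signal inside it cannot be seen. A deep peak lay farther from each edge than the length of 1 such window. Whether H2A.V nucleosomes occupied the CTCF site itself cannot be read from the lists.

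The 471 deep peaks lay in 462 H2A.V regions, here called hosts, of the 2076 regions wide enough to hold one (over 1000 bp). That is 22.3% of them (20.5 to 24.1%). Hosts ranged in width from 1095 to 7815 bp with a median of 1947 bp (1840 to 2056 bp). The median was 1705 bp (1682 to 1747 bp) for the 1614 regions of over 1000 bp without a deep peak. Regions just over 1000 bp have little room for a deep peak under the rule. The greater width of hosts thus follows in part from the rule itself. The narrowest host, on 2R from 18099773 to 18100867 (dm3 here and throughout), held its CTCF peak 512.5 bp from one edge and 582.5 bp from the other. The widest, on 2R from 10051439 to 10059253, held its peak 1273.5 bp from the nearest edge and 6541.5 bp from the other.

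The other 1988 CTCF peaks comprised 191 within the outer 500 bp of such wide regions, 164 inside regions of up to 1000 bp and 1633 whose midpoint was in no region. The limit cut through a continuous range of distances. The 3 peaks just inside it lay 503.5 bp (3R from 1835349 to 1835549), 506.5 bp (3R from 26879601 to 26879801) and 507.5 bp (2L from 17473100 to 17473300) from an edge. The 3 just short of it lay 496.5 bp (2L from 277206 to 277406), 494.5 bp (2L from 8511836 to 8512036) and 494.5 bp (3L from 1034850 to 1035050) from an edge. These peaks differ by a few bp in that distance, so the limit does not by itself mark separate kinds of site. The whole length of the peak, and not its midpoint alone, lay over 500 bp inside for 361 of the 471 (76.6%, 72.6 to 80.2%).

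The median distance of deep peaks to the nearest edge was 706.5 bp (665.5 to 736.5 bp, quartiles 603.5 and 853.5 bp), where even placement in the same hosts gives 708.9 bp. Up to 600 bp from an edge lay 109 of them (23.1%, 19.6 to 27.2%), against 27.0% under even placement. Up to 1000 bp lay 408 (86.6%, 83.3 to 89.4%), against 79.1%. Even placement here spreads each peak evenly over the stretch of its own host that is more than 500 bp from both edges. The distance to the other edge had a median of 1182.5 bp and ranged from 571.5 to 6541.5 bp. Even placement gives a median of 1207 bp for the other edge. The longer flank exceeded the shorter by a median of 414 bp (362 to 462 bp). The peaks were split about evenly between the sides of the centre: 232 of 471 peaks (49.3%, 44.8 to 53.8%) lay at lower coordinates than the centre of their host. Where a host had an H2A.V neighbour on either side, the nearest edge faced the farther neighbour for 248 of 466 peaks (53.2%, 48.7 to 57.7%), an interval that includes an equal split.

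Within the deep zone the distances fell into 2 maxima. At 600 to 650 bp from the nearest edge lay 90 peaks, 1.67-fold the number given by even placement (95% Poisson interval of the count over that number, 1.35 to 2.06). At 750 to 800 bp lay 51, a 1.67-fold excess (1.24 to 2.19). Between them, at 650 to 700 bp, lay 32 peaks, 0.682 of even placement (0.466 to 0.963), and at 500 to 550 bp, next to the limit, lay 36, or 0.542 of it (0.380 to 0.751). Of the 20 bins of 50 bp from 500 to 1500 bp, these 4 were the ones whose interval left out even placement. From 850 to 1050 bp the counts stayed between 0.992 and 1.29 of even placement.

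**Figure D1:**
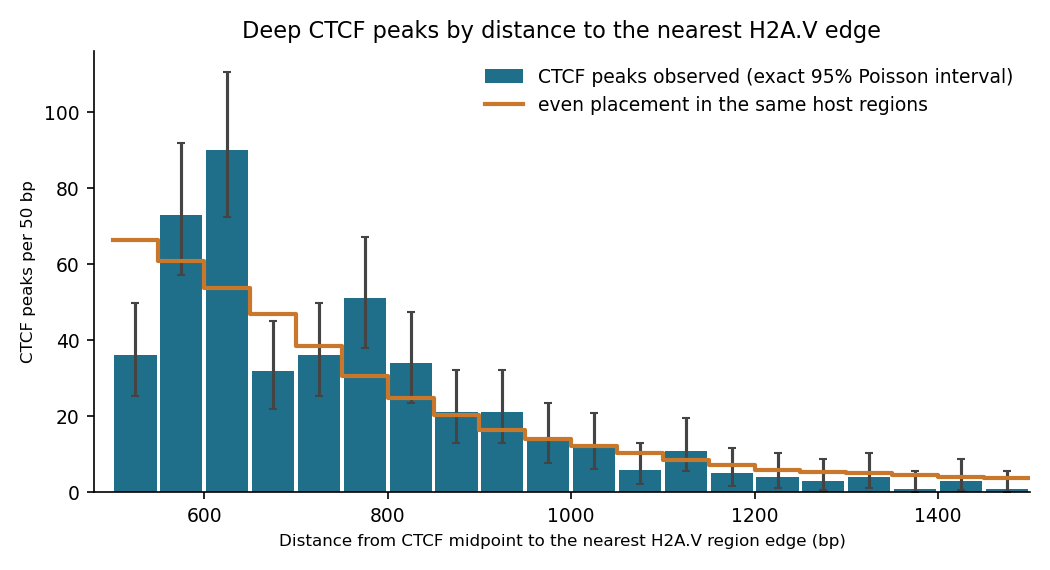
Number of deep CTCF peaks per 50 bp (bars, with exact 95% Poisson intervals) against the distance in bp from the peak midpoint to the nearest edge of its H2A.V region; the line is even placement of the same peaks in the same hosts. The bars stand above the line at 600 to 650 bp (90 peaks) and 750 to 800 bp (51 peaks) and below it at 500 to 550 bp (36) and 650 to 700 bp (32); 13 peaks farther than 1500 bp are not drawn.

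The maximum at 600 to 650 bp was found in wide and in narrower hosts. The profile was divided by host width into 5 classes, with limits chosen once the values were known, and in each of the 4 classes of over 1300 bp this bin was fuller than both of its neighbours. In hosts of 1300 to 1600 bp, 32 of 107 deep peaks lay at 600 to 650 bp from an edge, 1.33-fold of even placement (0.907 to 1.87). In hosts of 1600 to 2000 bp, 19 of 107 did so, a ratio of 1.36 (0.816 to 2.12). Both of these intervals include even placement, which is high there because the open stretch is short. In hosts of 2000 to 3000 bp, 19 of 131 lay in that bin, 1.94-fold (1.17 to 3.03). In hosts of over 3000 bp, where even placement gives 3.38 peaks, 15 of 99 did, 4.44-fold (2.48 to 7.32), and the bin was the fullest of those drawn for that class. The same distance thus recurred in hosts whose centres lay more than 1500 bp from either edge.

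The maximum at 750 to 800 bp drew most of its peaks from hosts of 1600 to 3000 bp. It held 24 of 107 peaks in hosts of 1600 to 2000 bp, 1.71-fold of even placement (1.097 to 2.55), and 17 of 131 in hosts of 2000 to 3000 bp, 1.74-fold (1.01 to 2.78). In hosts of over 3000 bp it held 6, a ratio of 1.77 with an interval from 0.651 to 3.86. Between the maxima, at 650 to 700 bp, hosts of 2000 to 3000 bp held 3 peaks against 9.78 under even placement (ratio 0.307, 0.0632 to 0.896). The ratio was 0.659 (0.351 to 1.13) in hosts of 1300 to 1600 bp and 0.713 (0.342 to 1.31) in those of 1600 to 2000 bp. Hosts of over 3000 bp had no such dip, with 6 peaks at 650 to 700 bp (ratio 1.77, 0.651 to 3.86). At 700 to 750 bp these widest hosts held 8 peaks, 2.37-fold of even placement (1.02 to 4.66). The H2A.V regions were built from windows of 500 bp with a fragment length set to 152 bp, per the file headers. The same headers give a minimum distance between peaks of 1000 bp. The part of these settings in the exact distances was not tested.

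**Figure D2:**
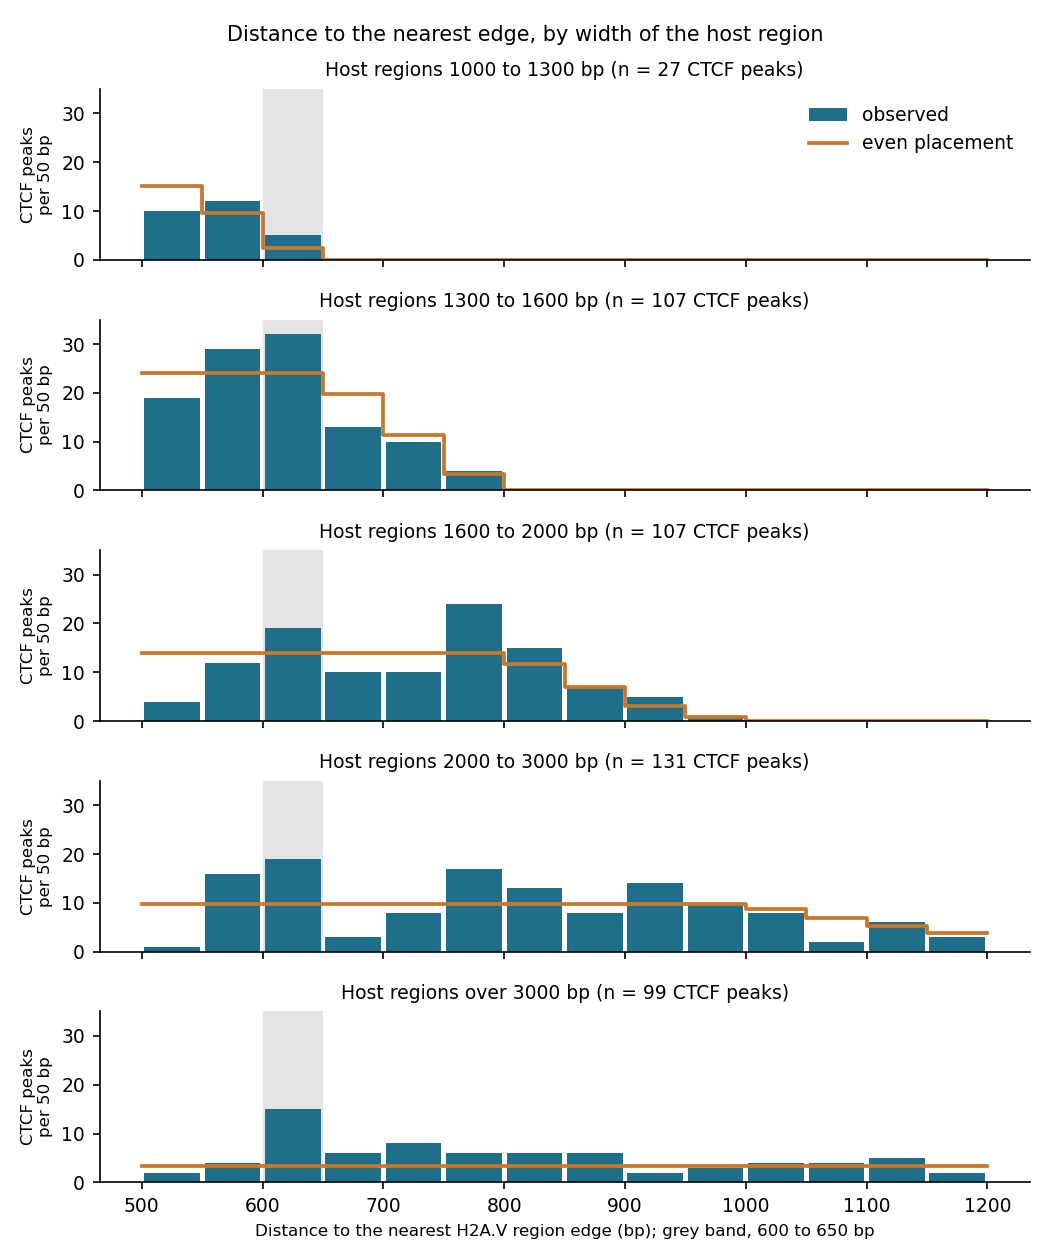
Number of deep CTCF peaks per 50 bp (bars) and under even placement (line) against distance in bp to the nearest H2A.V edge, in 5 panels by host width; the grey band marks 600 to 650 bp. The band holds 5, 32, 19, 19 and 15 peaks from the narrowest to the widest class, and the bar at 750 to 800 bp is the fullest in hosts of 1600 to 2000 bp (24 peaks); 29 peaks farther than 1200 bp are not drawn.

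In the widest hosts deep peaks lay nearer to an edge than even placement puts them. The median distance to the nearest edge was 569.5 bp in hosts of 1000 to 1300 bp, 608.5 bp in hosts of 1300 to 1600 bp and 740.5 bp in hosts of 1600 to 2000 bp. It was 804.5 bp (770.5 to 863.5 bp) in hosts of 2000 to 3000 bp and 883.5 bp (783.5 to 1007.5 bp) in those of over 3000 bp, with intervals that overlap. Even placement gives 544.7, 610.9, 690.8, 834.7 and 1232 bp from the narrowest to the widest class. The interval of the median left out even placement in hosts of over 3000 bp and included it in the other 4 classes. Over the same 5 classes the median distance to the other edge was 631.5, 836.5, 1054.5, 1516.5 and 2963.5 bp. In the widest class it was 2963.5 bp (2725.5 to 3169.5 bp), against 2674 bp under even placement. In the narrowest class a deep peak is held near the centre by the rule itself.

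In terms of centrality the classes differed. The open stretch of each host was divided into an inner part and an outer part of equal length, so that even placement puts 50% of peaks in the inner part. Over all deep peaks, 222 of 471 (47.1%, 42.7 to 51.6%) lay in the inner part, an interval that includes even placement. The limit of the rule decided this value: it was 58.4% (54.1 to 62.7%) with a limit of 400 bp, above even placement, but 42.0% (37.0 to 47.1%) with 600 bp and 38.2% (31.8 to 45.1%) with 750 bp, below it. The share was 55.6% (119 of 214, 48.9 to 62.1%) in hosts of 1300 to 2000 bp. Of these, hosts of 1300 to 1600 bp had 51.4% (42.0 to 60.7%), an interval that includes even placement. Those of 1600 to 2000 bp had 59.8% (50.3 to 68.6%), above it. Hosts of over 2000 bp had 37.8% (87 of 230, 31.8 to 44.2%), under even placement. Of these, hosts of 2000 to 3000 bp had 46.6% (61 of 131, 38.2 to 55.1%), an interval that includes it. Those of over 3000 bp had 26.3% (26 of 99, 18.6 to 35.7%), under even placement. The interval at 1300 to 2000 bp includes even placement and does not overlap that of hosts of over 2000 bp. Within 100 bp of the exact centre lay 137 of 471 (29.1%, 25.2 to 33.3%), where even placement gives 27.0%.

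**Figure D3:**
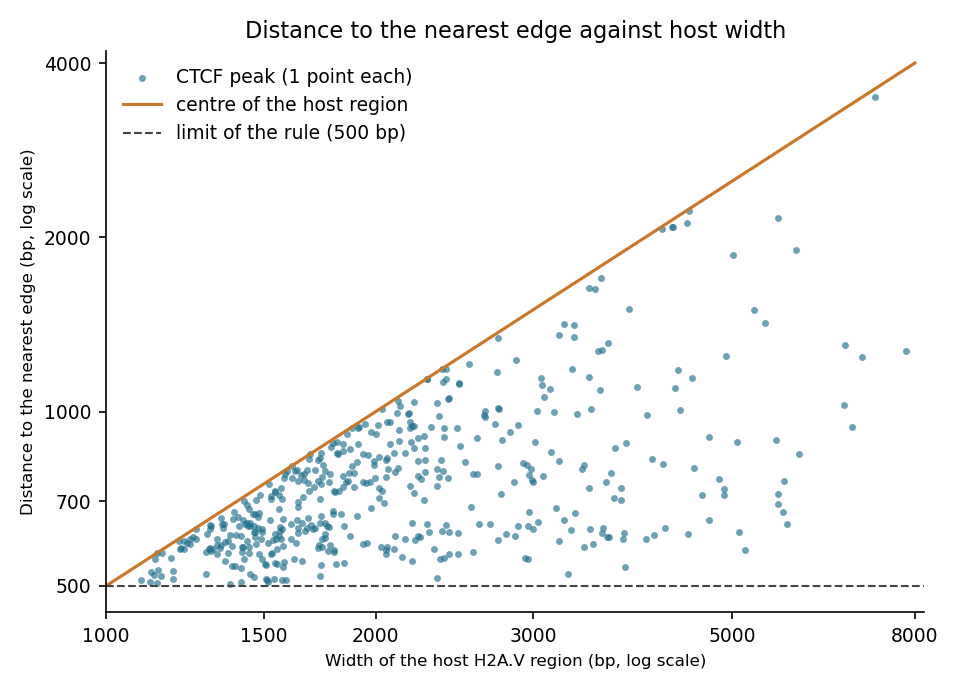
Distance from each of the 471 deep CTCF peaks to the nearest edge of its H2A.V region (bp, log scale) against the width of that region (bp, log scale); the solid line is the centre of the region and the dashed line the 500 bp limit. Points lie along the centre line in narrow hosts and spread below it in wide ones, where a band at 600 to 650 bp continues into hosts of over 3000 bp.

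A few peaks lay far from both edges. On 3L from 21530013 to 21530213 a CTCF peak sat 3498.5 bp and 3714.5 bp from the edges of a 7213 bp region, close to its centre. The next was on 2L from 4454414 to 4454614, at 2223.5 and 2247.5 bp from the edges of a 4471 bp region, also close to the centre. The third, on 3R from 25684581 to 25684781, lay 2161.5 and 3467.5 bp from the edges of a host that held another deep peak. Only 13 of the 471 were farther than 1500 bp from an edge (2.76%, 1.62 to 4.66%), where even placement would put 6.66%.

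Hosts with a pair of deep peaks were few. Of the 462 hosts, 453 held 1 deep peak and 9 held 2, and 7 further hosts held, beside their deep peak, a CTCF peak within 500 bp of an edge. Of the 9 hosts with a pair, 7 lay on 3R, which held 120 of the 462 hosts. The first 5 in coordinate order show how the pairs were arranged. On 3L from 7241868 to 7244434 the pair lay 571.5 bp from the lower edge and 781.5 bp from the upper edge, 1214 bp apart. On 3R from 1193351 to 1198242, a host of 4892 bp, the distances to the opposite edges were 718.5 and 735.5 bp and the midpoints were 3438 bp apart. All 4 of these peaks lay within 1000 bp of the edge on their own side.

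The next 3 pairs were closer. On 3R from 5083075 to 5086536 the midpoints were 484 bp apart, at 1149.5 and 1828.5 bp from the edges. On 3R from 7574836 to 7576344 they were 451 bp apart, at 514.5 and 543.5 bp, and on 3R from 18551241 to 18553472 they were 511 bp apart, at 900.5 and 820.5 bp. Peak calling required at least 400 bp between CTCF peaks, so closer pairs could not be listed. Over all 9 hosts the midpoints were 451 to 3438 bp apart. In 6 of the 9 hosts each peak of the pair lay within 1000 bp of the edge on its own side. In narrow hosts the limit of the rule and the required spacing leave a pair little other room. Even placement was not computed for pairs, so this count is a description only.

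Wider regions were hosts more often, while the density of deep peaks in the widest classes was lower. The rule leaves more room for a deep peak in a wider region, which by itself raises the share of hosts with width. Host shares under even placement were not computed, so their rise is a description only. Of regions of 1000 to 1300 bp, 27 of 386 were hosts (6.99%, 4.85 to 9.99%), against 23.1% of those of 1300 to 2000 bp (20.5 to 25.9%), 27.6% of those of 2000 to 3000 bp (23.7 to 31.8%) and 31.1% of those of over 3000 bp (26.1 to 36.6%). Per Mb of H2A.V sequence more than 500 bp from both edges, the same classes held 490.5 (323 to 714), 371 (323 to 425), 202 (169 to 239) and 106 (86.3 to 129) deep peaks. Inside the class of 1300 to 2000 bp, the density was 548 (449 to 663) at 1300 to 1600 bp and 281 (230 to 339) at 1600 to 2000 bp. It was thus not lower at 1300 to 1600 bp than at 1000 to 1300 bp. The share of hosts at 1300 to 2000 bp and that at over 3000 bp had intervals that did not overlap, and the same held for the densities. Hosts of over 3000 bp still held 1 deep peak in most cases, with 99 deep peaks in 93 hosts.

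The CTCF midpoints inside regions of a given width lay deep more often than even placement over the whole region would put them. In regions of 1300 to 2000 bp, 214 of 279 CTCF midpoints were deep (76.7%, 71.4 to 81.3%), where even placement gives 36.8%. In regions of 2000 to 3000 bp, 131 of 156 were (84.0%, 77.4 to 88.9%), against 57.5% under even placement. In regions of over 3000 bp the share was 84.6% (99 of 117, 77.0 to 90.04%), against 74.99%, and in regions of 1000 to 1300 bp it was 24.5% (27 of 110, 17.5 to 33.4%), against 12.3%. The distance from even placement was widest at 1300 to 2000 bp. These shares are set by the measure that chose the deep peaks and are given as a description.

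Deep peaks were found on every euchromatic arm and on chromosome 4. They numbered 127 on 3R, 97 on 2R, 81 on 3L, 81 on X, 67 on 2L and 13 on chromosome 4, and 5 lay on heterochromatic sequences. As a share of the CTCF peaks of the arm they made up 22.8% on 3R (19.5 to 26.4%), 21.8% on 2R (18.3 to 25.9%), 17.1% on 3L (14.0 to 20.8%), 16.4% on 2L (13.1 to 20.3%) and 16.0% on X (13.1 to 19.5%). On chromosome 4, the smallest autosome, whose genes lie within heterochromatin, 13 of 35 CTCF peaks were deep (37.1%, 23.2 to 53.7%). Its interval overlaps those of 3R and 2R and lies above those of 2L, 3L and X.

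Set against the H2A.V sequence available, chromosome 4 was closer to the other arms. The large arms were not closer to each other by this measure. Deep peaks numbered 250.3 per Mb of sequence over 500 bp from both edges on 3R (209 to 298), 217 on 2R (176 to 264), 216 on 3L (172 to 269), 191 on X (152 to 237) and 170.0 on 2L (132 to 216). Chromosome 4 had 289 (154 to 494), and all 6 intervals overlap. The share of regions of over 1000 bp that were hosts was 22.7% on X (18.6 to 27.3%), against 21.8% (19.9 to 23.9%) on the 4 large autosomal arms together. The maximum at 600 to 650 bp from an edge was the fullest bin on 2L, 2R, 3L and 3R, with 13, 17, 14 and 32 peaks, and was tied with 550 to 600 bp on X, with 13 each. The interval left out even placement on 3R (2.04-fold, 1.39 to 2.87) and included it on 2L, 2R, 3L and X, where the ratio was between 1.51 and 1.72. Chromosome 4 held 0 of its 13 deep peaks there, where even placement gives 0.980, a count too low to tell apart from the other arms.

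The X share of deep peaks depended on the peaks they were set against. The X held 17.2% of deep peaks (14.1 to 20.9%), against 21.4% (19.6 to 23.2%) of the other CTCF peaks, and the intervals overlap. It held 12.0% (8.16 to 17.4%) of the CTCF peaks within the outer 500 bp of regions of over 1000 bp, so that the direction was turned round against these. Of the CTCF midpoints on X inside regions of over 1000 bp, 77.9% were deep (81 of 104, 69.0 to 84.8%), against 69.8% (372 of 533, 65.8 to 73.5%) on the 4 large autosomal arms, with overlapping intervals. Hosts on X had a median width of 2184 bp (1958 to 2385 bp), and those on 3R of 1793 bp (1691 to 1937 bp).

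**Figure D4:**
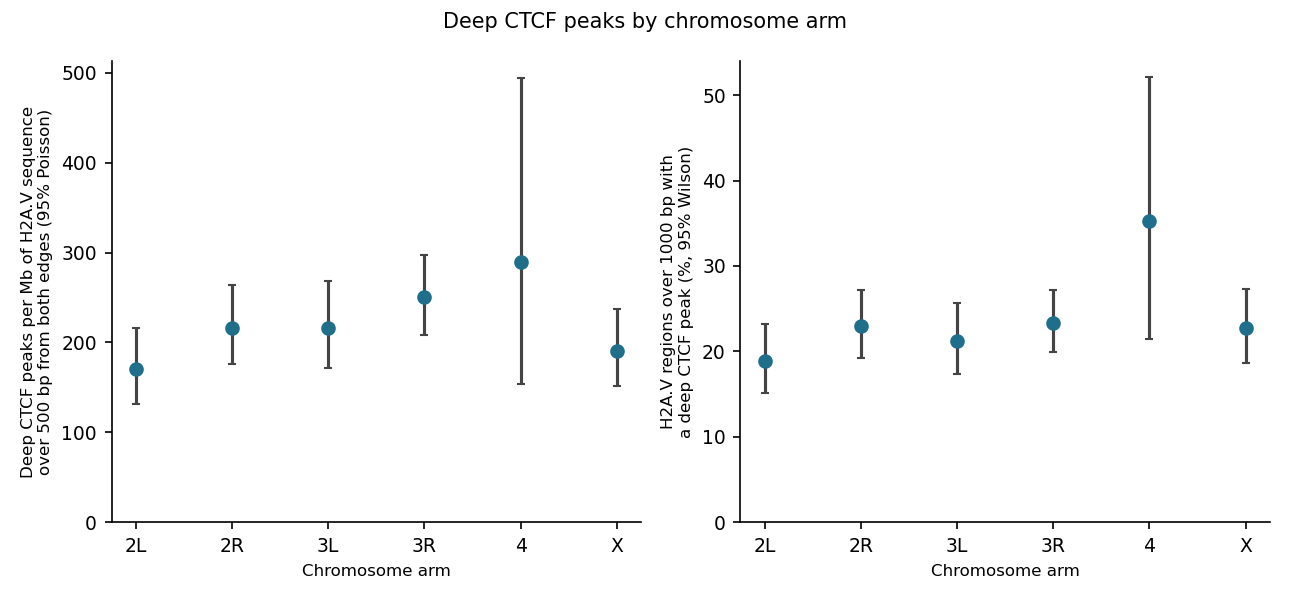
Deep CTCF peaks per Mb of H2A.V sequence over 500 bp from both edges (left, exact 95% Poisson intervals) and share of H2A.V regions of over 1000 bp that hold a deep peak (right, %, 95% Wilson intervals), by chromosome arm. Densities run from 170.0 per Mb on 2L to 289 on chromosome 4, and every pair of intervals overlaps in both panels.

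Deep peaks were more frequent late in the list of CTCF peaks. What sets the order of the lines is not stated in the file, so a late place is not read here as weaker binding. Of the last 1229 listed peaks 329 were deep (26.8%, 24.4 to 29.3%), against 142 of the first 1230 (11.5%, 9.88 to 13.5%). In 10 equal parts of the list the share rose along parts 1 to 8, beginning at 5.69% (3.42 to 9.32%). Part 5 had 20.3% (15.8 to 25.8%), part 8 had 31.3% (25.8 to 37.3%), and part 10, the last, had 20.0% (15.5 to 25.5%). The earliest deep peaks were on chromosome 4 from 507276 to 507476 at line 22, on 3L from 11116256 to 11116456 at line 45 and on 3R from 22692447 to 22692647 at line 87. These lay 680.5, 1087.5 and 758.5 bp from their nearest edges.

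Much of that change was shared with other CTCF peaks inside H2A.V regions. The last 1229 lines held 69.9% of deep peaks (65.6 to 73.8%), against 59.7% (52.6 to 66.4%) of peaks in the outer 500 bp of wide regions, 68.3% (60.8 to 74.9%) of those in regions of up to 1000 bp and 41.3% (38.9 to 43.7%) of those outside every region. Among CTCF midpoints in regions of over 1000 bp, 74.3% (329 of 443, 70.0 to 78.1%) of the late-listed were deep, against 64.8% (142 of 219, 58.3 to 70.9%) of the early-listed, with intervals that overlap. The distance to the nearest edge did not follow the list. Its median over the deep peaks of each part stayed between 640 and 755.5 bp, with 640 bp in part 1 and 718.5 bp in part 10.

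**Figure D5:**
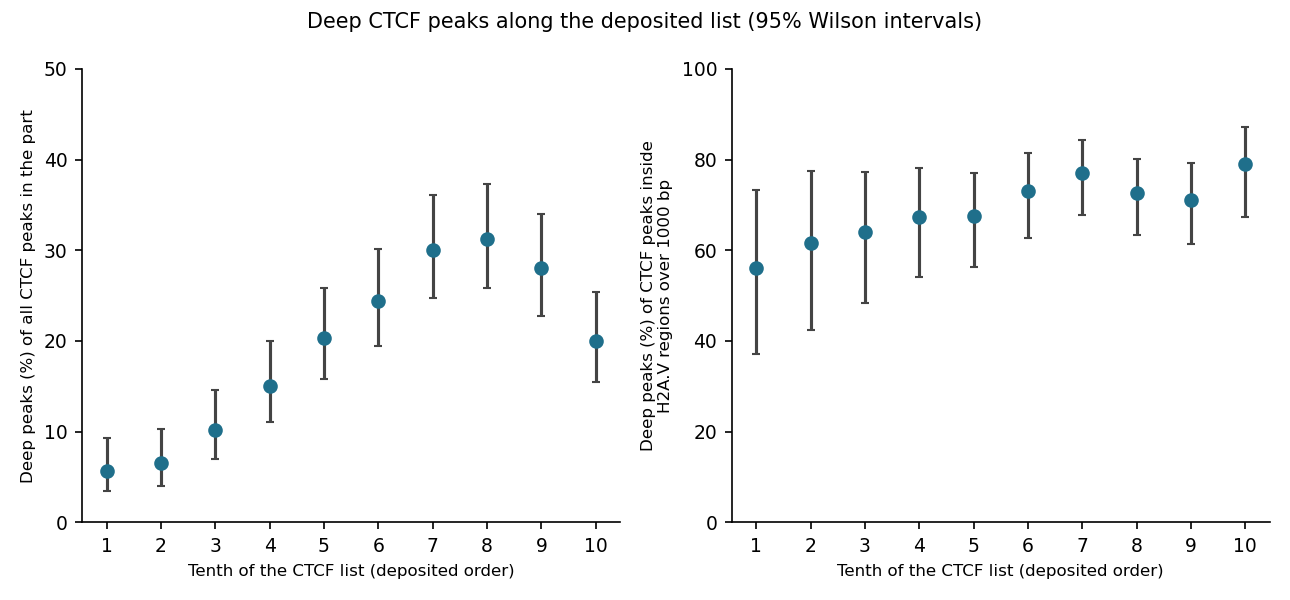
Share of deep peaks (%) among all CTCF peaks (left) and among those inside H2A.V regions of over 1000 bp (right) in 10 equal parts of the CTCF list in deposited order, with 95% Wilson intervals. The left share is 5.69% in part 1 and 31.3% in part 8, while the right share lies between 56.0% and 79.0% and its intervals overlap.

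Along the chromosome, deep peaks lay nearer to another CTCF peak than did the other CTCF peaks as a whole. The median distance to the nearest other CTCF midpoint was 13334 bp (11176 to 14906 bp) for deep peaks, against 17089 bp (16172 to 17852 bp) for the rest. Another CTCF peak lay within 5 kb of 89 of the 471 deep peaks (18.9%, 15.6 to 22.7%), against 276 of 1988 other peaks (13.9%, 12.4 to 15.5%). CTCF peaks elsewhere in H2A.V regions had medians of 14680 bp (10971 to 18009 bp) in the outer 500 bp of wide regions and 14612.5 bp (12570 to 18001 bp) in regions of up to 1000 bp. Both of these intervals overlap that of deep peaks.

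Hosts stood farther from other H2A.V regions than wide regions without a deep peak did. The gap from a host to the nearest other H2A.V region had a median of 4250 bp (3725 to 4899 bp), against 3238 bp (2951 to 3519 bp) for the regions of over 1000 bp without one. Another region lay within 5 kb of 253 of 462 hosts (54.8%, 50.2 to 59.2%), against 1014 of 1614 regions without a deep peak (62.8%, 60.4 to 65.1%). Within width classes the median gap was 4304 bp (3274 to 5555 bp) for hosts of 1300 to 2000 bp, against 3163.5 bp (2726 to 3519 bp). It was 4496 bp (3187 to 6128 bp) for hosts of 2000 to 3000 bp, against 2941 bp (2498 to 3437 bp), and 3816 bp (2345 to 5037 bp) for hosts of over 3000 bp, against 2752 bp (2153 to 3523 bp). In each of these 3 classes hosts had the longer median gap, and in each the intervals overlap. At 1000 to 1300 bp the order was the opposite, with 4088 bp (2218 to 13747 bp) for 27 hosts, against 4471 bp (3700 to 5232 bp).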

How the data were processed

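ChIP-seq was made from unstaged wild-type embryos. The submitters' processing notes name Bowtie 1.1.1, HOMER and the dm3 build. The lists deposited by the authors hold start and end positions in bp; in the score column the authors deposited a constant 1, which was not used. CTCF peaks were called in factor style (200 bp, at least 37 tags) and H2A.V regions in histone style (500 bp windows, at least 67 tags, joined), each 4-fold over the input, per the file headers. The antibody label, and not the title, which gives another protein name, put the H2A.V library in its group. No list of the H3 or input library was used here.

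Midpoints were placed in regions, even placement was computed exactly from host widths, and the code was tested on simulated placements. Wilson, exact Poisson and rank-based intervals were used. Peaks named are those earliest listed, deepest, nearest the limit, paired in 1 host (the first 5) and in the narrowest and widest host. The peaks and comparisons were chosen with earlier results of these data known. Gene positions, promoters and motifs in dm3 were not used here, so no gene is named and the planned motif and start-site shares were not computed. Alternatives covered the distance limit, arms, parts of the lists, host width and comparison set. Python 3.11.15, NumPy 2.4.6, SciPy 1.17.1, pandas 2.3.3 and matplotlib 3.10.9 were used.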

Additional observations from a re-analysis of the deposited data

How the results depend on the processing

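Of 128 values recomputed under alternatives, 109 stayed within the 95% interval of the value reported, 18 moved outside it and 1 turned the direction of a reported difference. A turn was counted only where the interval of the reported value left out even placement, an equal split or no difference. The inner share, whose interval includes 50%, was thus counted as moved where it crossed 50%. For a difference or ratio the interval carries the error of the deep peaks only. A limit of 400, 600 or 750 bp gave 58.4%, 42.0% and 38.2% of deep peaks in the inner part of their open stretch, on either side of the 50% of even placement. Of the regions wide enough to hold a deep peak under each limit, 20.4%, 19.8% and 14.6% were hosts. That set of regions changes with the limit, so these shares do not have the same base. The changed limit made 20.5% (400 bp), 14.7% (600 bp) and 8.30% (750 bp) of CTCF peaks deep. A limit of 400 bp raised the excess at 600 to 650 bp to 2.11-fold. At 750 bp that bin is outside the zone and has no value. With the early-listed part of the H2A.V regions alone, 15.8% of CTCF peaks were deep. The inner share, 47.1% over all hosts, was 56.0% in hosts of up to 2000 bp (49.7 to 62.1%, an interval that includes 50%). It was 37.8% in wider ones (31.8 to 44.2%), where the excess at 600 to 650 bp was 2.58-fold. Over all hosts the excess was 1.21-fold in a bin of 600 to 700 bp, an alternative chosen after seeing the data. The X share of deep peaks minus that of other CTCF peaks was −7.54 percentage points among early-listed peaks, and 5.16 against peaks in the outer 500 bp of wide regions, the opposite direction to the −4.18 against all other CTCF peaks. Against those peaks the excess of late-listed entries was 10.2 percentage points, and the ratio of median distances to the nearest other CTCF peak 0.908, the second of these added after seeing the data; that ratio was 0.874 among early-listed peaks. Leaving out any of 2L, 2R, 3L, 3R, 4 or X moved no value outside its interval. The causes were not tested. No paired analysis was possible because there is 1 library for each antibody. Sites under 37 CTCF tags or 67 H2A.V tags per window are not in the lists, and comparison with the input removed 15117 of 18141 putative CTCF peaks, per the file headers.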

Other observations

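Deep CTCF peaks were spread thinly along the arms, with a few local groups picked after their counts were seen. Of the 100 kb windows with any deep peak, 270 held 1, 70 held 2, 15 held 3 and 4 held 4. In the window on 2R from 5000001 to 5100000, and in that on 3R from 18500001 to 18600000 (dm3), all 4 listed CTCF peaks were deep, among 8 H2A.V regions in each window. On 3R from 21000001 to 21100000, 4 of 6 CTCF peaks were deep, and on 3R from 25600001 to 25700000, 4 of 5 were. The 4 deep peaks of the window at 18500001 lay in 2 hosts, 650.5 to 903.5 bp from their nearest edges.

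The median width of H2A.V regions of over 1000 bp fell along the parts of the H2A.V list, and hosts were found along most of it. In 10 equal parts of that list, 25.1% of regions of over 1000 bp were hosts in part 1 (95% Wilson interval 20.7 to 30.1%, median width 3627 bp) and 24.9% in part 5 (20.4 to 30.1%, median width 1455 bp). In part 7 the share was 15.1% (10.3 to 21.7%, median width 1221.5 bp).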
